A study of Mus musculus with 84 samples.

Results

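Gene expression in epididymal fat was compared between leptin-deficient ob/ob mice and wild-type (WT) mice that were both fed a high-fat diet (HFD). The comparison takes the 3 ob/ob HFD and the 3 WT HFD libraries of that tissue, chosen by the genotype, diet and tissue in their titles, which are 6 of the 84 libraries of the series and 6 of its 12 epididymal fat libraries. The series covers 7 tissues of 12 mice, 3 mice for each combination of genotype (ob/ob or WT) and diet (HFD or normal diet, ND), dissected at 20 weeks, a time that the labels give without saying whether it is age or time on the diet. The ob/ob mice are homozygous for a premature stop in Lep, the leptin gene, so that every tissue lacks working leptin from birth and effects of leptin loss in the fat itself cannot be told apart from those of the obesity, overeating and hormonal changes of the whole animal. The WT mice have intact leptin, and both groups share the HFD. Each library comes from 1 mouse, and the labels name no strain for either genotype. The extraction text attached to every sample speaks of hearts, so the tissue was checked against its markers.

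Leptin is secreted by fat cells in proportion to fat stores and acts in the brain to limit food intake and raise energy use. Epididymal fat is a visceral white depot in which triglyceride is made, stored in adipocytes and released as fatty acids. In obese WT mice this depot is known for enlarged and dying adipocytes, gathering macrophages, fibrosis and impaired insulin action, while its free surface is covered by mesothelium, a sheet of keratin-containing lining cells, and adipocyte progenitors lie in its connective tissue.

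In the 12 epididymal fat libraries, total gene counts ran from 12441470 to 14079794, and the deposited values are whole fragment counts per gene. CPM below are counts scaled to the size of a library, per 1e6 counts after TMM scaling. Only the values of Adipoq, Fabp4, Ckm and Crisp1 in this paragraph are without TMM scaling. The adipocyte genes Adipoq, which encodes adiponectin, and Fabp4, the fatty acid carrier of fat cells, had 270 to 6810 CPM and 2339 to 17632 CPM across these libraries. Ckm, the creatine kinase of muscle including the heart, did not exceed 1.46 CPM, and the epididymis gene Crisp1 did not exceed 0.428 CPM. Of the 19 epididymis markers, 17 had counts too low to test. The sum of 9 testis germ cell markers was 27.97 CPM in ob/ob library 3 and 0.143 to 0.474 CPM in the other 5 HFD libraries. WT library 3 was the WT library nearest to the ob/ob libraries on the first principal component of the 6 HFD libraries, which held 50.5% of the variance. The ob/ob libraries were at 29.6, 15.6 and 17.4 and the WT libraries at -36.4, -19.3 and -6.86. Counts of each lead group of genes are therefore also given without each library in turn.

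The ob/ob mice had heavier fat depots, and the difference was far greater in retroperitoneal than in epididymal fat. Epididymal fat weighed 2.02, 2.02 and 2.62 in ob/ob mice, against 1.14, 1.412 and 1.497 in WT mice, in a unit that the deposited table does not name. Every ob/ob depot was heavier than every WT depot, with means of 2.22 ± 0.348 and 1.35 ± 0.186 (SD, n = 3 each). Retroperitoneal fat weighed 5.48, 6.87 and 6.43 in ob/ob mice, against 2.06, 2.11 and 1.83 in WT mice, a ratio of means of 3.13. As a percentage of body weight, epididymal fat took 2.84, 2.79 and 3.25 in ob/ob mice, against 2.28, 3.04 and 3.14 in WT mice, so these shares overlapped. Body weight was 71.2, 72.3 and 80.8 in ob/ob mice, against 50.1, 46.4 and 47.7 in WT mice. Fasting glucose was 110, 118 and 117 in ob/ob mice, against 239, 259 and 188 in WT mice, with no overlap. The separate glucose measure of the blood work did overlap, with 267, 378 and 412 in ob/ob mice, against 284, 412 and 364 in WT mice. Leptin in blood was 0 in all 3 ob/ob mice, against 850, 636 and 637 in WT mice, under a column named ng/ml whose scale could not be checked. Of 18 measures, 11 did not overlap between the groups. With 3 mice against 3, the exact two-sided permutation test cannot go below p = 0.1, so after adjustment over the 18 measures the smallest value was 0.164 and no measure passed 0.05.

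**Figure D1:**
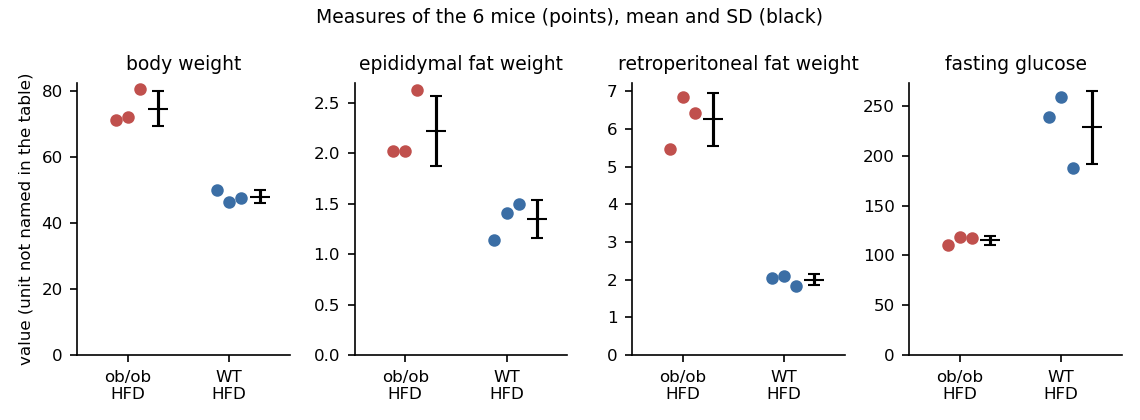
Body weight, epididymal and retroperitoneal fat weight and fasting glucose of the 6 HFD mice, in the units of the deposited table, which it does not name. Points are mice, with ob/ob HFD left of WT HFD, and black bars give the mean and SD (n = 3 each). Weights lie higher and fasting glucose lower in ob/ob mice, with no overlap in any of the 4 panels. The glucose measure of the blood work, which is not drawn, overlapped between the groups.

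Lep itself was transcribed in both groups. Its RNA had 3405, 2336 and 2759.7 CPM in the ob/ob libraries, against 467, 839 and 2006 CPM in the WT libraries. The mutation changes the protein, so the level of the transcript does not check the labels. Blood leptin does not check them either: it was 0 in the 3 ob/ob HFD mice and not in the 3 WT HFD mice, but the deposited table also has 0 for the 3 ob/ob ND mice and for the 3 WT ND mice. In Lep RNA all ob/ob libraries were above all WT libraries, but the difference did not pass 0.05 in edgeR's quasi-likelihood test (log2 fold change 1.36 ± 0.47, adjusted p = 0.066). Lepr, the leptin receptor, had 4.28, 2.77 and 3.76 CPM in the ob/ob libraries, against 0.536, 0.787 and 3.45 CPM in the WT libraries, with WT library 3 inside the ob/ob range (log2 fold change 1.17 ± 0.52, adjusted p = 0.139). None of the 7 leptin pathway genes tested passed in edgeR, with 2 at an unadjusted p under 0.05 and 1 called by DESeq2.

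Of 15676 genes tested, 2752 (17.6%) differed between ob/ob and WT fat on HFD at an adjusted p under 0.05. Of these, 1576 (10.1% of the genes tested) rose and 1176 (7.5%) fell in ob/ob fat, among them 541 higher and 316 lower by at least 2-fold. Here and below, the log2 fold change is ob/ob HFD over WT HFD with its standard error, and adjusted p values are from edgeR's quasi-likelihood test with Benjamini-Hochberg adjustment over all genes tested, unless another contrast is named. A gene is said to rise or fall where it passed 0.05. The median log2 fold change of all genes tested was -0.00118. In 3021 genes (19.3%) all 3 ob/ob libraries lay above all 3 WT libraries, and in 2699 (17.2%) all lay below. These counts depended on single libraries, with 376 genes called without ob/ob library 1, 862 without WT library 2 and 4420 without WT library 3. None of the 2752 genes changed its sign in any of 17 alternatives. The alternatives reuse the libraries in which these genes were called, so kept signs are not independent support.

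Several genes with unlike roles were among the largest increases. Ppp1r3a (ENSMUSG00000042717, chromosome 6, 14713977 to 14755274, minus strand, coordinates on GRCm38) encodes a subunit that brings protein phosphatase to glycogen. It had 15.2, 11.5 and 11.9 CPM in the ob/ob libraries, against 0.536, 0.143 and 0.935 CPM in the WT libraries. Every ob/ob library was far above every WT library, and the log2 fold change was 4.56 ± 0.59, adjusted p = 0.00303. Tmem132b (ENSMUSG00000070498, chromosome 5, 125531774 to 125792583, plus strand), which encodes a transmembrane protein, had 14.2, 2.92 and 6.39 CPM in the ob/ob libraries, against 0.0766, 0.0716 and 0.503 CPM in the WT libraries (log2 fold change 5.10 ± 0.73, adjusted p = 0.00423). Its 3 ob/ob values were widely spread, yet all were above the WT values. Pex5l, a relative of the peroxisomal import receptor, had 33.8, 19.4 and 28.3 CPM in ob/ob fat, against 0.919, 0.931 and 3.67 CPM in WT fat (log2 fold change 3.87 ± 0.54, adjusted p = 0.0035). Kcnj15, an inward rectifier potassium channel, had 161, 89.2 and 126 CPM in ob/ob fat, against 6.36, 11.1 and 25.1 CPM in WT fat (log2 fold change 3.14 ± 0.42, adjusted p = 0.00337). Tfr2, transferrin receptor 2 of iron sensing, rose by a log2 fold change of 2.98 ± 0.53, and Gpr50, an orphan receptor related to melatonin receptors, by 2.86 ± 0.50.

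Genes with unlike roles were also among the largest decreases. Scn3b (ENSMUSG00000049281, chromosome 9, 40269217 to 40291618, plus strand) encodes a sodium channel beta subunit. It had 1.15, 0.790 and 1.42 CPM in the ob/ob libraries, against 8.66, 9.59 and 12.6 CPM in the WT libraries. Its level was low in all 3 ob/ob libraries, with every WT library far above them and a log2 fold change of -3.18 ± 0.34, adjusted p = 0.00183. Matn4, the matrix protein matrilin 4, had a log2 fold change of -3.22 ± 0.56, and Pkhd1l1, a large membrane protein related to fibrocystin, one of -3.52 ± 0.71. Of the 9 genes named in this and the preceding paragraph, 8 passed in all 17 alternatives, and Pkhd1l1 missed the threshold without ob/ob library 1.

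**Figure D2:**
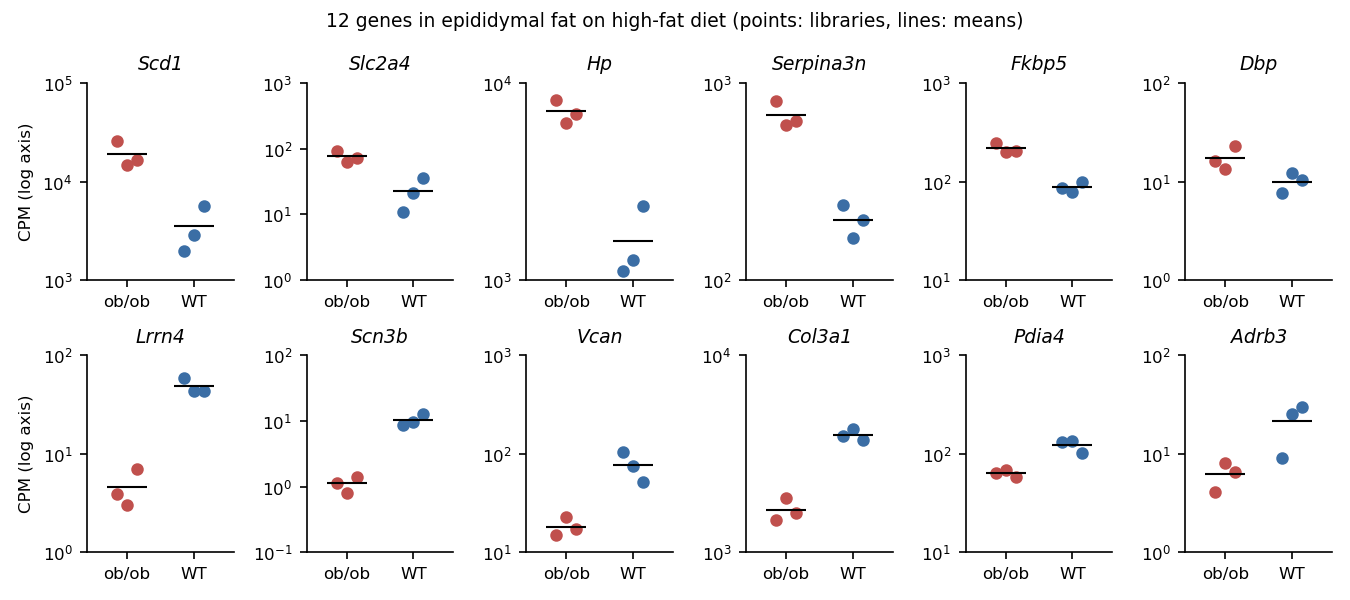
CPM per library, on log axes, for 12 genes of the HFD comparison. Points are the 3 ob/ob HFD libraries on the left and the 3 WT HFD libraries on the right of each panel, and lines mark the means. Scd1, Slc2a4, Hp, Serpina3n, Fkbp5 and Dbp lie higher in ob/ob fat, and Lrrn4, Scn3b, Vcan, Col3a1, Pdia4 and Adrb3 lie lower, without overlap.

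Many adipocyte genes rose in ob/ob fat. Of 22 adipocyte identity genes tested, 11 rose and 0 fell, where 10.1% of all genes rose, and their median log2 fold change was 1.03. Slc2a4, which encodes the insulin-regulated glucose transporter GLUT4, had 93.3, 63.1 and 72.3 CPM in the ob/ob libraries, against 10.96, 21.3 and 36.2 CPM in the WT libraries. The lowest ob/ob value was well above the highest WT value, and the log2 fold change was 1.74 ± 0.34, adjusted p = 0.0111. Pnpla2, the adipose triglyceride lipase, had 1202, 1074 and 959 CPM in the ob/ob libraries, against 299, 395 and 669 CPM in the WT libraries (log2 fold change 1.25 ± 0.26, adjusted p = 0.0133). Cebpa, a transcription factor of fat cell differentiation, had 601, 483 and 491 CPM in the ob/ob libraries, against 292, 299 and 331 CPM in the WT libraries (log2 fold change 0.77 ± 0.14, adjusted p = 0.00931). Within WT fat all 3 genes were lowest in library 1 and highest in library 3. Mrap, an accessory protein of melanocortin receptors, rose by a log2 fold change of 1.48 ± 0.32, Lipe, the hormone-sensitive lipase, by 1.36 ± 0.37, Plin1, the coat protein of the fat droplet, by 1.36 ± 0.35, and Fabp4 by 1.20 ± 0.31. Pparg, the master regulator of fat cell differentiation, was just inside the threshold (log2 fold change 0.76 ± 0.23, adjusted p = 0.0448). Adipoq had 1439, 1119 and 974 CPM in the ob/ob libraries, against 284, 568 and 1115 CPM in the WT libraries, with WT library 3 inside the ob/ob range, and did not pass (log2 fold change 0.84 ± 0.39, adjusted p = 0.153). Cd36, a fatty acid transporter shared with macrophages and endothelium, had 9735, 10569.5 and 8895 CPM in the ob/ob libraries, against 10925, 10628 and 7854 CPM in the WT libraries (log2 fold change -0.01 ± 0.21, adjusted p = 0.979).

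The summed level of the 22 adipocyte genes was 48591, 40472 and 38150 CPM in the ob/ob libraries, against 23432, 27470 and 35254 CPM in the WT libraries. The sums did not overlap, with WT library 3 closest to the ob/ob libraries. The sum of the 22 macrophage markers was 11263, 15563 and 11682 CPM in the ob/ob libraries, against 22855, 22162 and 12870 CPM in the WT libraries, with WT library 3 inside the ob/ob range. In bulk tissue, more adipocytes and more adipocyte RNA per cell cannot be told apart, and the part of cell makeup in any result below was not tested. The number of adipocyte genes that rose was 0, 7 or 4 without ob/ob library 1, 2 or 3, and 4, 2 or 20 without WT library 1, 2 or 3. All 8 adipocyte genes named as rising missed the threshold without ob/ob library 1, and 6 of them missed it without WT library 2. Of the 17 alternatives they passed in 11 to 16, apart from Pparg with 5.

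**Figure D3:**
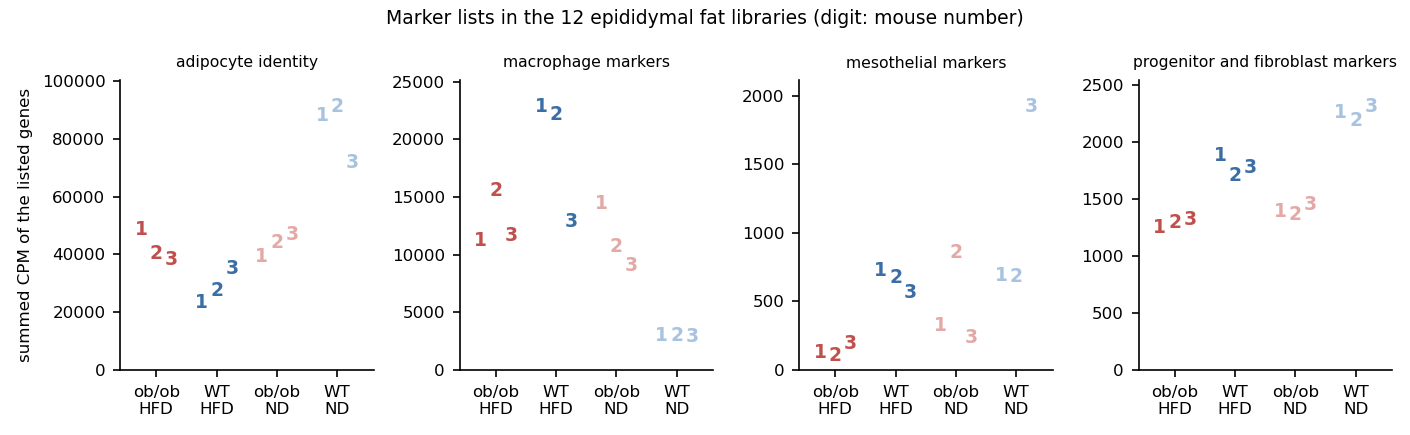
Summed CPM of 4 marker lists in the 12 epididymal fat libraries, with groups in the order ob/ob HFD, WT HFD, ob/ob ND and WT ND, and a digit for each mouse. On HFD the adipocyte, mesothelial and progenitor sums do not overlap between ob/ob and WT, while the macrophage sum of WT mouse 3 lies in the ob/ob range.

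Genes of fatty acid and triglyceride synthesis rose in part. Of 22 genes of fatty acid synthesis, 11 rose and 0 fell (median log2 fold change 0.83). Scd1 (ENSMUSG00000037071, chromosome 19, 44394451 to 44407709, minus strand), the desaturase that makes oleate from stearate, had 25848, 14801 and 16600.4 CPM in the ob/ob libraries, against 1959, 2872 and 5692 CPM in the WT libraries. All 3 ob/ob libraries were well above the highest WT library, and the log2 fold change was 2.44 ± 0.41, adjusted p = 0.00651. Srebf1, the transcription factor that drives lipogenic genes, had 282, 196 and 247 CPM in the ob/ob libraries, against 129.95, 121 and 150.3 CPM in the WT libraries (log2 fold change 0.85 ± 0.17, adjusted p = 0.0107). Scd2, a second desaturase, rose by 1.67 ± 0.36, Acaca, acetyl-CoA carboxylase, by 1.22 ± 0.30, and Mlxipl, the carbohydrate-sensing factor ChREBP, by 1.65 ± 0.44 on the log2 scale. Fasn, fatty acid synthase, had 1420.02, 670.3 and 1127 CPM in the ob/ob libraries, against 137, 228 and 809.8 CPM in the WT libraries. WT library 3 exceeded ob/ob library 2, and Fasn did not pass (log2 fold change 1.45 ± 0.55, adjusted p = 0.0882). Of 17 genes of triglyceride assembly, 8 rose and 1 fell (median 0.91). Dgat1 and Dgat2, which add the last fatty acid to triglyceride, rose by 1.27 ± 0.26 and 1.54 ± 0.42. Mogat2, which makes diglyceride from monoglyceride, had 13.6, 4.19 and 8.94 CPM in ob/ob fat, against 0.460, 1.36 and 3.31 CPM in WT fat (log2 fold change 2.36 ± 0.54, adjusted p = 0.0173). The count of fatty acid synthesis genes that rose was 2, 9 or 5 without ob/ob library 1, 2 or 3, and 4, 3 or 14 without WT library 1, 2 or 3. For triglyceride assembly it was 0, 8 or 4 without ob/ob library 1, 2 or 3, and 4, 1 or 12 without WT library 1, 2 or 3.

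Lipolysis and glucose genes were divided. Of 26 genes of beta-adrenergic signalling and lipolysis, 11 rose and 1 fell (median 0.74). Prkar2b, a regulatory subunit of protein kinase A, rose by 1.42 ± 0.29. The gene that fell was Adrb3, the main beta-adrenergic receptor of mouse fat cells, with 4.12, 7.98 and 6.53 CPM in the ob/ob libraries, against 9.12, 25.4 and 30.1 CPM in the WT libraries. Its ob/ob values were all below its WT values, opposite in sign to the lipase genes Pnpla2 and Lipe (log2 fold change -1.79 ± 0.42, adjusted p = 0.0179). Of 31 genes of insulin signalling and glucose use, 7 rose and 1 fell (median 0.30). Gys2, the glycogen synthase known best from liver, had 45.3, 28.8 and 39.97 CPM in the ob/ob libraries, against 8.20, 15.03 and 16.04 CPM in the WT libraries (log2 fold change 1.53 ± 0.26, adjusted p = 0.00741), and Ppp1r3a is described above. Pik3r1, the regulatory subunit of phosphoinositide 3-kinase, rose by 0.88 ± 0.19 and Foxo1, a transcription factor restrained by insulin, by 1.02 ± 0.25. Irs1, an insulin receptor substrate, had a log2 fold change of 0.01 ± 0.25, and Akt2, the main insulin-responsive Akt kinase of fat, one of 0.15 ± 0.14, and neither passed. Lipolysis genes that rose numbered 1, 8 or 5 without ob/ob library 1, 2 or 3, and 5, 2 or 19 without WT library 1, 2 or 3. Genes of insulin signalling and glucose use that rose numbered 2, 6 or 4 without ob/ob library 1, 2 or 3, and 4, 3 or 14 without WT library 1, 2 or 3. Of the 11 genes of lipid synthesis, storage and lipolysis named as changed, apart from Ppp1r3a, Pik3r1 and Foxo1, Scd1 and Gys2 passed in all 17 alternatives and the other 9 missed the threshold without ob/ob library 1, passing in 12 to 16.

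Mitochondrial genes rose by small amounts and in large numbers. Branched-chain amino acid breakdown, a pathway active in adipocytes, had 17 of 24 genes higher and 0 lower (median 0.67). Bckdha, a subunit of the enzyme that commits these amino acids to oxidation, had 44.2, 43.3 and 39.7 CPM in the ob/ob libraries, against 18.4, 20.05 and 27.3 CPM in the WT libraries (log2 fold change 0.95 ± 0.15, adjusted p = 0.00558). Exons of Bckdha share 61.7% of their bases with B3gnt8 on the opposite strand, and the counting was not strand-specific. Auh, an enzyme of leucine breakdown, had 63.9, 56.6 and 51.5 CPM in the ob/ob libraries, against 35.8, 38.8 and 37.4 CPM in the WT libraries (log2 fold change 0.62 ± 0.10, adjusted p = 0.00577), and Ivd and Dbt, enzymes of the same pathway, rose by 1.03 ± 0.21 and 0.91 ± 0.21. In the tricarboxylic acid cycle and pyruvate dehydrogenase list 15 of 22 genes rose and 0 fell (median 0.48). Dlat, a subunit of pyruvate dehydrogenase, had 162, 121 and 137 CPM in the ob/ob libraries, against 65.7, 75.3 and 94.7 CPM in the WT libraries (log2 fold change 0.83 ± 0.14, adjusted p = 0.00734), and its partner subunits Dld and Pdhb rose by 0.60 ± 0.11 and 0.55 ± 0.11.

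Respiratory chain and ATP synthase genes encoded in the nucleus had 35 of 74 higher and 0 lower (median 0.29). Cox8a, a cytochrome oxidase subunit, had 316, 279 and 279.6 CPM in the ob/ob libraries, against 182, 171 and 174 CPM in the WT libraries. Both groups were tight and apart by more than their own ranges (log2 fold change 0.73 ± 0.10, adjusted p = 0.0032). Cox5b, of the same complex, rose by 0.62 ± 0.09, and Atp5g3, of ATP synthase, by 0.71 ± 0.13. Of 13 transcripts encoded by mitochondrial DNA, 2 rose and 0 fell (median 0.44). The 15.4% called lie below the 17.6% of all genes called in either direction, while 10.1% of all genes rose. Fatty acid oxidation genes had 15 of 29 higher and 1 lower (median 0.52). Hadh, an enzyme of the oxidation spiral, had 374, 278 and 294 CPM in ob/ob fat, against 141, 172 and 196 CPM in WT fat (log2 fold change 0.90 ± 0.15, adjusted p = 0.00734), and Cpt2, the carnitine transferase of the inner membrane, rose by 0.74 ± 0.15. The summed adipocyte genes moved in the same direction in the same libraries, and their part in these results was not tested. The count of branched-chain genes that rose was 2, 12 or 6 without ob/ob library 1, 2 or 3, and 3, 2 or 18 without WT library 1, 2 or 3, and that of respiratory chain genes was 2, 18 or 14 without ob/ob library 1, 2 or 3, and 15, 7 or 29 without WT library 1, 2 or 3. Tricarboxylic acid cycle genes that rose numbered 1, 10 or 5 without ob/ob library 1, 2 or 3, and 4, 4 or 14 without WT library 1, 2 or 3. Fatty acid oxidation genes that rose numbered 1, 9 or 8 without ob/ob library 1, 2 or 3, and 4, 1 or 20 without WT library 1, 2 or 3. Of the 12 mitochondrial genes named as rising, Cox8a, Cox5b, Dlat, Bckdha, Auh and Hadh passed in all 17 alternatives, and the other 6 missed the threshold without ob/ob library 1, passing in 14 to 16.

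Cholesterol genes rose in part. Of 23 genes of cholesterol synthesis and uptake, 10 rose and 0 fell (median 0.51). Hsd17b7, an enzyme of the later steps of cholesterol synthesis, had 25.3, 22.1 and 21.7 CPM in the ob/ob libraries, against 11.03, 12.6 and 11.2 CPM in the WT libraries. Both groups were tight and did not overlap (log2 fold change 0.99 ± 0.16, adjusted p = 0.00571). Lss, lanosterol synthase, rose by 0.95 ± 0.19. Apoc1, a lipoprotein component also made by macrophages, had 63.2, 43.8 and 57.4 CPM in ob/ob fat, against 10.1, 15.2 and 21.9 CPM in WT fat (log2 fold change 1.80 ± 0.27, adjusted p = 0.00523). Soat1, which esterifies cholesterol in macrophages and is not in the synthesis and uptake list, fell by a log2 fold change of -0.81 ± 0.25. A separate list of cholesterol efflux genes and targets of the nuclear receptor LXR had 1 of 15 higher and 1 lower. The 13.3% called there lie below the 17.6% of all genes. The count of synthesis and uptake genes that rose was 4, 8 or 5 without ob/ob library 1, 2 or 3, and 5, 4 or 12 without WT library 1, 2 or 3. Hsd17b7 and Apoc1 passed in all 17 alternatives, Lss in 15 and Soat1 in 7. RefSeq listed promoters of 16 genes of the synthesis and uptake list (GRCm38.p6, 300 bases, both strands searched). The sterol regulatory element TCACNCCAC was present in 0 of 7 that rose and in 1 of 9 that did not pass, against 1.24% of all promoters.

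Acute phase genes, known as plasma proteins released in inflammation by liver and also by fat, rose in part. Of 13 tested, 7 rose and 0 fell (median 1.71). Hp, haptoglobin, had 8208, 6304 and 6998 CPM in the ob/ob libraries, against 1113, 1270.1 and 2377 CPM in the WT libraries. Every ob/ob library was well above every WT library (log2 fold change 2.18 ± 0.27, adjusted p = 0.00303). Serpina3n (ENSMUSG00000021091, chromosome 12, 104406729 to 104414329, plus strand), a protease inhibitor, had 808, 612 and 641 CPM in the ob/ob libraries, against 241, 164 and 201 CPM in the WT libraries (log2 fold change 1.77 ± 0.19, adjusted p = 0.00183). Lcn2, lipocalin 2, which binds bacterial iron carriers, had 76.7, 43.5 and 71.6 CPM in the ob/ob libraries, against 24.6, 19.6 and 14.6 CPM in the WT libraries (log2 fold change 1.71 ± 0.26, adjusted p = 0.00534). Orm1, orosomucoid, rose by 1.61 ± 0.36 and Hpx, hemopexin, by 3.33 ± 0.98. Saa3, the serum amyloid A of mouse fat and macrophages, did not pass (log2 fold change 1.03 ± 0.53, adjusted p = 0.193). The 12 liver secretory markers had 295.63, 367.33 and 112.66 CPM in the ob/ob libraries, against 72.946, 138.67 and 140.46 CPM in the WT libraries, with overlapping sums. Their median log2 fold change was 2.16, and 0 of them passed in edgeR, with 1 at an unadjusted p under 0.05 and 0 called by DESeq2. Of 32 adipokines and secreted factors, 7 rose and 2 fell, with Retn, resistin, at 289, 119.99 and 169 CPM in ob/ob fat, against 12.1, 36.9 and 80.98 CPM in WT fat (log2 fold change 2.15 ± 0.55, adjusted p = 0.0247) and Rarres2, chemerin, higher by 1.07 ± 0.18. Exons of Rarres2 share 33.6% of their bases with Lrrc61. Cfd, adipsin, was close to the threshold (log2 fold change 1.71 ± 0.54, adjusted p = 0.0488). The count of acute phase genes that rose was 4, 6 or 6 without ob/ob library 1, 2 or 3, and 6, 4 or 6 without WT library 1, 2 or 3, and that of adipokines 2, 6 or 3 without ob/ob library 1, 2 or 3, and 4, 2 or 19 without WT library 1, 2 or 3. Hp, Serpina3n, Lcn2 and Rarres2 passed in all 17 alternatives, while Orm1 passed in 14, Retn in 13, Hpx in 8 and Cfd in 4 of them.

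Targets of the glucocorticoid receptor rose in part, while the receptor did not pass. Glucocorticoids such as corticosterone act through this nuclear receptor and promote lipogenesis and fat cell differentiation. Of 24 genes of the list 10 rose and 0 fell (median 0.60), and 3 of the 10 (Lcn2, Serpina3n and the clock gene Per1) also stand in other lists described here. Fkbp5, a chaperone partner of the receptor and one of its classical targets, had 248, 199.5 and 204 CPM in the ob/ob libraries, against 85.4, 78.4 and 99.8 CPM in the WT libraries. The groups were far apart compared with their own spread (log2 fold change 1.30 ± 0.15, adjusted p = 0.00242). Klf9, a transcription factor induced by the receptor, had 172, 158 and 146 CPM in ob/ob fat, against 95.6, 104 and 96.7 CPM in WT fat (log2 fold change 0.69 ± 0.11, adjusted p = 0.00623). Map3k6, a stress kinase, had 50.8, 52.2 and 55.5 CPM in ob/ob fat, against 25.4, 20.98 and 31.9 CPM in WT fat (log2 fold change 1.02 ± 0.21, adjusted p = 0.012), and Klf15, a transcription factor of fat and muscle metabolism, rose by 1.71 ± 0.37. Nr3c1, the receptor, had 134, 117 and 121 CPM in the ob/ob libraries, against 123, 128 and 131 CPM in the WT libraries (log2 fold change -0.04 ± 0.09, adjusted p = 0.776). Tsc22d3, or GILZ, another classical target, had a log2 fold change of 0.19 ± 0.21, and Hsd11b1, which reactivates glucocorticoid in fat, one of 0.90 ± 0.34, and neither passed. The count of these genes that rose was 4, 6 or 6 without ob/ob library 1, 2 or 3, and 6, 6 or 10 without WT library 1, 2 or 3.

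Clock genes rose in part. Circadian genes form a loop in which Clock and Arntl switch on the Per and Cry repressors and the output factors Dbp, Tef and Hlf. Of 19 tested, 11 rose and 0 fell (median 0.55). Cry2 had 58.9, 45.5 and 48.6 CPM in the ob/ob libraries, against 18.8, 20.98 and 27.8 CPM in the WT libraries (log2 fold change 1.18 ± 0.18, adjusted p = 0.00542). Rora, a nuclear receptor that activates Arntl, had 90.8, 75.5 and 69.9 CPM in ob/ob fat, against 37.6, 48.5 and 42.3 CPM in WT fat (log2 fold change 0.88 ± 0.12, adjusted p = 0.00337). Tef had 123, 107 and 113 CPM in ob/ob fat, against 87.4, 79.03 and 70.4 CPM in WT fat and Dbp 16.1, 13.3 and 22.9 CPM in ob/ob fat, against 7.59, 12.1 and 10.3 CPM in WT fat. Their log2 fold changes were 0.53 ± 0.10, adjusted p = 0.0102 for Tef and 0.80 ± 0.21, adjusted p = 0.0295 for Dbp, whose exons share 18.01% of their bases with Sphk2. Per3 rose by 0.67 ± 0.18 although WT library 3 reached into the ob/ob range. Arntl had 20.9, 23.2 and 17.96 CPM in the ob/ob libraries, against 18.6, 19.7 and 21.6 CPM in the WT libraries, with overlapping groups (log2 fold change 0.05 ± 0.13, adjusted p = 0.811). The time of day of dissection is not in the labels. In RefSeq promoters of 16 of these genes the E-box CACGTG was present in 3 of 10 that rose and in 2 of 6 that did not pass, against 7.15% of all promoters. The D-box TTATGTAA was present in 1 of 10 and 0 of 6, against 0.938% of all promoters. The count of clock genes that rose was 2, 7 or 3 without ob/ob library 1, 2 or 3, and 3, 6 or 7 without WT library 1, 2 or 3. Of the 9 glucocorticoid and clock genes named as rising, Fkbp5, Klf9, Cry2 and Rora passed in all 17 alternatives, and the other 5 missed the threshold without ob/ob library 1, passing in 12 to 16.

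**Figure D4:**
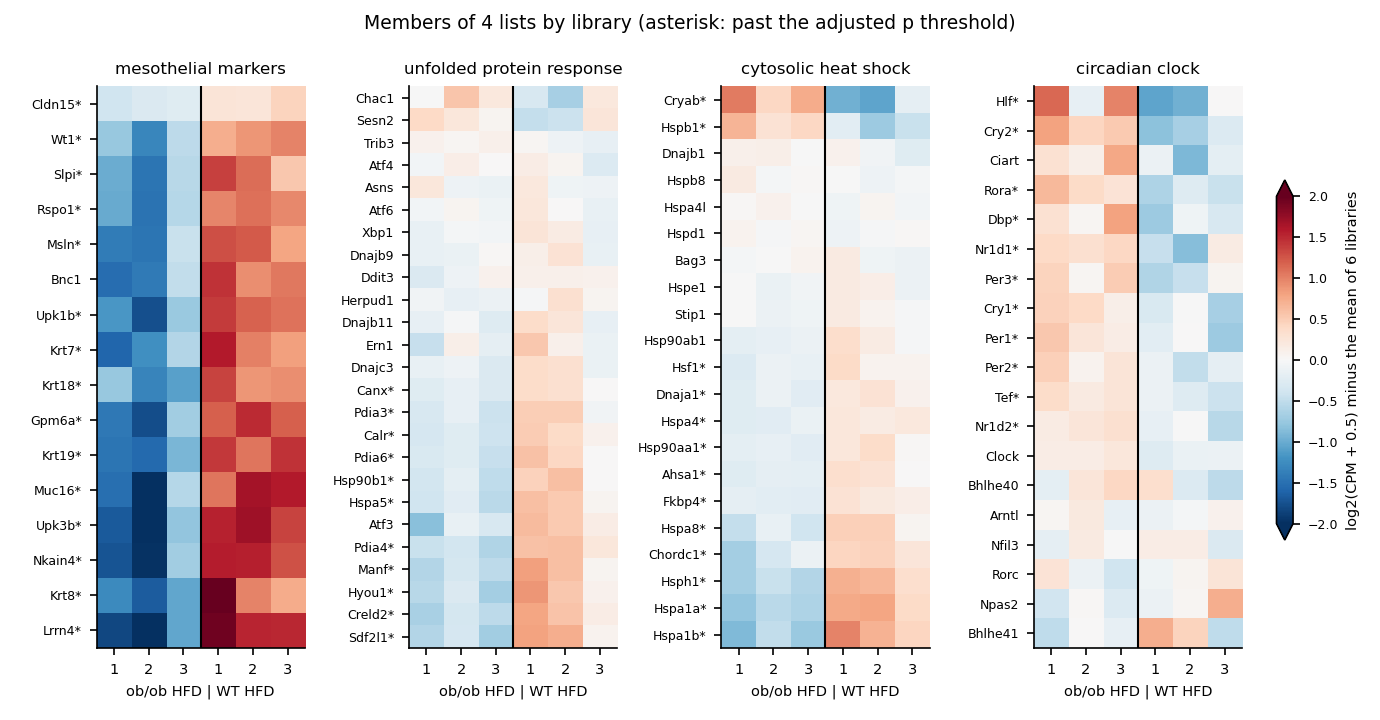
Members of 4 gene lists in the 3 ob/ob HFD libraries (left columns) and the 3 WT HFD libraries (right columns), as log2(CPM + 0.5) minus the mean of the 6 libraries. Red is above and blue below that mean, and an asterisk marks an adjusted p under 0.05. Mesothelial genes are low in all ob/ob libraries, most ER and heat shock chaperones are low in ob/ob fat with WT library 3 the palest WT column, and 11 of 19 clock genes are marked, all higher in ob/ob fat.

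Nearly all mesothelial genes fell, and steeply. Of 16 tested, 15 fell and 0 rose, where 7.5% of all genes fell, and the median log2 fold change was -2.49. All 16 had their 3 ob/ob values below their 3 WT values, against 17.2% of all genes. Upk3b, uroplakin 3B of the mesothelial surface, had 11.9, 8.70 and 22.6 CPM in the ob/ob libraries, against 116, 129 and 100.8 CPM in the WT libraries. Lrrn4 (ENSMUSG00000043110, chromosome 2, 132868305 to 132880891, minus strand), a membrane protein typical of mesothelium, had 3.87, 3.004 and 6.96 CPM in the ob/ob libraries, against 58.8, 43.5 and 43.4 CPM in the WT libraries. In both genes every ob/ob library was far below every WT library, with log2 fold changes of -2.995 ± 0.62, adjusted p = 0.0129 for Upk3b and -3.38 ± 0.62, adjusted p = 0.00888 for Lrrn4. The keratins Krt8 and Krt19 fell by log2 fold changes of -3.09 ± 0.69 and -2.82 ± 0.58, Nkain4 had -3.08 ± 0.60, Msln, mesothelin, -2.18 ± 0.69, and Wt1, a transcription factor of mesothelium, -1.79 ± 0.39. Bnc1, basonuclin 1, was the member that did not pass (log2 fold change -2.41 ± 0.79, adjusted p = 0.0585). The summed level of the list was 130.48, 107.74 and 190.04 CPM in the ob/ob libraries, against 726.93, 672.15 and 563.14 CPM in the WT libraries. Fewer mesothelial cells per unit of tissue and less RNA per cell cannot be told apart, and the larger size of the ob/ob depots, given above, moved with this result, though its part was not tested. The count of mesothelial genes that fell was 0, 8 or 8 without ob/ob library 1, 2 or 3, and 8, 7 or 14 without WT library 1, 2 or 3. All 7 genes named as falling, which passed in 16 of the 17 alternatives apart from Msln with 9, missed the threshold without ob/ob library 1, whose values lie between those of the other ob/ob libraries for Upk3b and Lrrn4.

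Markers of adipocyte progenitors and fibroblasts fell as well. Of 22 tested, 11 fell and 1 rose (median -0.58). Cd34, a surface glycoprotein of progenitors and endothelium, had 76.9, 65.5 and 74.5 CPM in the ob/ob libraries, against 121, 153 and 174 CPM in the WT libraries. No ob/ob value reached a WT value (log2 fold change -1.05 ± 0.13, adjusted p = 0.00303). Pi16, which marks early interstitial progenitors, had 12.2, 15.2 and 13.9 CPM in the ob/ob libraries, against 33.3, 46.3 and 33.3 CPM in the WT libraries (log2 fold change -1.45 ± 0.24, adjusted p = 0.00662). Dpp4, a surface peptidase of the same cells, had 9.39, 5.53 and 10.6 CPM in ob/ob fat, against 29.3, 39.9 and 37.3 CPM in WT fat (log2 fold change -2.06 ± 0.46, adjusted p = 0.0159). Ly6a, the mouse stem cell antigen Sca-1, had a log2 fold change of -0.95 ± 0.19, Pdgfra, the receptor that marks the whole progenitor lineage, -0.61 ± 0.15, and Fap, fibroblast activation protein, -0.56 ± 0.12. The gene that rose was Zfp423, a zinc finger protein of committed fat cell precursors (log2 fold change 1.07 ± 0.33, adjusted p = 0.0473). The summed level of the list was 1248.9, 1292.8 and 1318.7 CPM in the ob/ob libraries, against 1878, 1708.8 and 1773.4 CPM in the WT libraries. The count of these genes that fell was 2, 9 or 6 without ob/ob library 1, 2 or 3, and 9, 6 or 12 without WT library 1, 2 or 3.

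Genes of the extracellular matrix fell in part, and a few rose. Of 40 matrix remodelling genes, 13 fell and 3 rose (median -0.69). Vcan, the proteoglycan versican, had 14.98, 22.6 and 17.1 CPM in the ob/ob libraries, against 105, 75.9 and 51.9 CPM in the WT libraries. WT library 3 was the lowest WT value and still far above the highest ob/ob value (log2 fold change -2.09 ± 0.27, adjusted p = 0.00303). Fbn1, fibrillin 1, whose C-terminal piece is the fasting hormone asprosin, had 137, 225 and 159.9 CPM in the ob/ob libraries, against 506, 483 and 384 CPM in the WT libraries (log2 fold change -1.39 ± 0.20, adjusted p = 0.0037). P4ha1, which hydroxylates proline in collagen, had a log2 fold change of -1.14 ± 0.15, Loxl2, which crosslinks collagen, -1.003 ± 0.17, and Mmp3, the metalloprotease stromelysin 1, -1.67 ± 0.35. Timp4, an inhibitor of matrix metalloproteases abundant in fat, rose, with 154, 82.7 and 99.5 CPM in ob/ob fat, against 2.22, 6.23 and 27.3 CPM in WT fat (log2 fold change 3.23 ± 0.73, adjusted p = 0.0163). Lox, lysyl oxidase, rose by 1.07 ± 0.24. Of 27 collagens, 6 fell and 2 rose (median -0.29). Col3a1, a fibrillar collagen, had 1468, 1882 and 1575 CPM in the ob/ob libraries, against 3915, 4228 and 3712 CPM in the WT libraries (log2 fold change -1.27 ± 0.24, adjusted p = 0.0098). Col6a3, which contains endotrophin, fell by a log2 fold change of -0.71 ± 0.17, and Col23a1, a membrane collagen, rose by 1.29 ± 0.37. Col1a1, the main chain of type I collagen, had all ob/ob values below WT but did not pass (log2 fold change -0.87 ± 0.41, adjusted p = 0.159). The count of matrix genes that fell was 4, 13 or 7 without ob/ob library 1, 2 or 3, and 8, 6 or 19 without WT library 1, 2 or 3, and that of collagens was 1, 5 or 2 without ob/ob library 1, 2 or 3, and 2, 3 or 8 without WT library 1, 2 or 3. Of the 16 progenitor, matrix and collagen genes named as changed, apart from Zfp423, Cd34, Pi16, Vcan, Fbn1, P4ha1 and Loxl2 passed in all 17 alternatives, and the other 10 missed the threshold without ob/ob library 1, passing in 11 to 16. Zfp423 passed in 7 of the 17.

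A minority of macrophage genes fell in ob/ob fat. Macrophages in obese fat surround dying adipocytes and take up lipid, and some of them carry the integrin CD11c. Of 22 macrophage markers, 4 fell and 0 rose (median -0.51). The 18.2% called lie near the 17.6% of all genes called in either direction, while 7.5% of all genes fell. Adgre1, the surface receptor F4/80, had 499.7, 602 and 506 CPM in the ob/ob libraries, against 841, 852 and 832 CPM in the WT libraries. Both groups were tight and did not overlap (log2 fold change -0.65 ± 0.12, adjusted p = 0.00876). C1qa, a chain of complement C1q, and Cd300ld, a lipid-binding receptor, had log2 fold changes of -0.48 ± 0.12 and -1.05 ± 0.28. Of 25 genes of lipid-associated macrophages, 2 fell and 1 rose (median -0.37), and the 12% called lie below the 17.6% of all genes. Itgax, which encodes CD11c, had 295, 423 and 336 CPM in the ob/ob libraries, against 759, 631 and 533 CPM in the WT libraries (log2 fold change -0.87 ± 0.27, adjusted p = 0.0454), Dcstamp, a fusion protein of giant cells, a log2 fold change of -1.19 ± 0.33, and Acp5, the phosphatase TRAP, 0.99 ± 0.23. Trem2, the lipid receptor that defines these cells, did not pass (log2 fold change -0.37 ± 0.16, adjusted p = 0.134). Spp1, osteopontin, had 203, 1232 and 275 CPM in the ob/ob libraries, against 3660.2, 1119.6 and 187 CPM in the WT libraries, with a wide spread in both groups (log2 fold change -1.54 ± 0.92, adjusted p = 0.264).

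Of 25 genes of resident and alternatively activated macrophages, 8 fell and 1 rose (median -0.55). Mrc1, the mannose receptor CD206, had 278, 376 and 298 CPM in the ob/ob libraries, against 743, 657 and 395 CPM in the WT libraries (log2 fold change -0.91 ± 0.22, adjusted p = 0.0213). Folr2, folate receptor beta, had a log2 fold change of -0.95 ± 0.18, with 63.1% of its exon bases shared with Gm10602, and F13a1, coagulation factor XIII A, -1.64 ± 0.43. The gene that rose was Chil3, the chitinase-like protein Ym1. It had 13.2, 9.17 and 7.10 CPM in the ob/ob libraries, against 1.92, 1.65 and 2.09 CPM in the WT libraries, low in all WT libraries (log2 fold change 2.37 ± 0.26, adjusted p = 0.00183). Among 35 chemokines and receptors, 6 fell and 0 rose. Ccr2, the receptor that draws monocytes to tissue, had 27.3, 36.4 and 31.2 CPM in the ob/ob libraries, against 68.6, 66.7 and 54.6 CPM in the WT libraries (log2 fold change -0.999 ± 0.17, adjusted p = 0.00769). Ccr3, a chemokine receptor of eosinophils, had a log2 fold change of -1.54 ± 0.29. Of 28 inflammatory cytokines and NF-kB feedback genes, 4 fell and 0 rose, with Nlrp3, the inflammasome sensor, at -0.93 ± 0.22 and Il18, a cytokine it releases, at -1.14 ± 0.29. The shares called were 17.1% of the chemokine and receptor genes and 14.3% of the cytokine and feedback genes. Of all genes, 17.6% were called in either direction and 7.5% fell. Tnf, the cytokine long tied to obese fat, did not pass (log2 fold change -0.27 ± 0.35, adjusted p = 0.61). The count of macrophage markers that fell was 0, 4 or 1 without ob/ob library 1, 2 or 3, and 1, 1 or 13 without WT library 1, 2 or 3, and that of resident macrophage genes 0, 3 or 1 without ob/ob library 1, 2 or 3, and 7, 1 or 9 without WT library 1, 2 or 3. Chemokine and receptor genes that fell numbered 2, 6 or 3 without ob/ob library 1, 2 or 3, and 4, 3 or 11 without WT library 1, 2 or 3, and cytokine and feedback genes 0, 3 or 1 without ob/ob library 1, 2 or 3, and 1, 0 or 7 without WT library 1, 2 or 3. Of the 14 immune genes named as changed, Chil3 and Ccr2 passed in all 17 alternatives, and the other 12 missed the threshold without ob/ob library 1, passing in 9 to 16.

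Interferon-induced genes were lower in part. Type I interferon switches on antiviral genes in most cells. Of 30 tested, 8 fell and 0 rose (median -0.37). Oas1a, a sensor of double-stranded RNA, had 5.52, 6.64 and 6.96 CPM in the ob/ob libraries, against 14.02, 13.7 and 19.6 CPM in the WT libraries (log2 fold change -1.31 ± 0.18, adjusted p = 0.0035). Ifitm3, which blocks virus entry, had a log2 fold change of -0.64 ± 0.12, Ifi44 -2.25 ± 0.49 and Oas2 -1.83 ± 0.44. None of 21 GTPases induced by interferon-gamma passed in edgeR (median -0.17), with 2 at an unadjusted p under 0.05 and 0 called by DESeq2. Of 24 complement genes, 9 fell and 5 rose (median -0.47). C5ar1, the receptor for the fragment C5a, had 99.2, 139 and 124 CPM in the ob/ob libraries, against 253, 239.7 and 221 CPM in the WT libraries (log2 fold change -0.98 ± 0.16, adjusted p = 0.0065), and C1s1, a protease of the C1 complex, a log2 fold change of -0.85 ± 0.16. Cfi, complement factor I, rose by 3.25 ± 0.80, like Cfd above. The count of interferon genes that fell was 3, 8 or 2 without ob/ob library 1, 2 or 3, and 6, 3 or 9 without WT library 1, 2 or 3, and that of complement genes 2, 5 or 3 without ob/ob library 1, 2 or 3, and 4, 3 or 11 without WT library 1, 2 or 3. The complement genes that rose numbered 0, 4 or 0 without ob/ob library 1, 2 or 3, and 0, 0 or 7 without WT library 1, 2 or 3. Oas1a, Ifitm3, C5ar1 and C1s1 passed in all 17 alternatives, Ifi44 missed the threshold without ob/ob library 3, and Oas2 passed in 14 and Cfi in 13.

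Chaperones of the endoplasmic reticulum (ER) fell together. Misfolded protein in the ER activates the sensors ATF6, IRE1 and PERK, and ATF6 with NF-Y raises chaperone genes through the ER stress element, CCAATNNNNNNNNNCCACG. Of 25 genes of the unfolded protein response and the integrated stress response, 11 fell and 0 rose (median -0.38). The promoters shown belong to Hspa5, which encodes the chaperone BiP, and to Hsp90b1, which encodes GRP94, because the results turn on these chaperones, and capitals mark the element on either strand. They run from 250 bases before to 50 bases after the annotated start, 5' to 3' on the strand of the gene, as given by RefSeq on GRCm38.p6. The Hspa5 promoter lies at chr2:34771840-34772139, plus strand, with 1 element, and the Hsp90b1 promoter at chr10:86705395-86705694, minus strand, with 2.
Hspa5 promoter: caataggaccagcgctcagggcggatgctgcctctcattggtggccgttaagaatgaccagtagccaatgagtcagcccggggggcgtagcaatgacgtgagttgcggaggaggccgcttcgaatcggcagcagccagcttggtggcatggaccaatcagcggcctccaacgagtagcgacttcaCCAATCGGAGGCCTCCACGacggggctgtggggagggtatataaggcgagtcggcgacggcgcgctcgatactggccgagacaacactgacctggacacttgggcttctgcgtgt
Hsp90b1 promoter: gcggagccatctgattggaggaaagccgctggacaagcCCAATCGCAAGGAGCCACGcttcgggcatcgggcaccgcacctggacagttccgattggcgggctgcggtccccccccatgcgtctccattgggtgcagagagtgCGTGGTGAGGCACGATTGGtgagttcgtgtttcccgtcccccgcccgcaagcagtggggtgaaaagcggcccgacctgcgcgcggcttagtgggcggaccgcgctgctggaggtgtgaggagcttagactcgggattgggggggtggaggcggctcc

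The element was searched on both strands in 32851 RefSeq promoters of 300 bases, and 39 of them (0.119%) held it. RefSeq promoters were listed for 22 of the 25 genes of the response. The letters were present in 6 of the 9 matched genes that fell and in 1 of the 13 that did not pass. The 5 others are shown with 8 bases on each side, for Pdia6 (chr12:17266483-17266517, plus strand), Calr (chr8:84847067-84847101, minus strand), Canx (chr11:50325792-50325826, minus strand), Creld2 (chr15:88819512-88819546, plus strand) and Dnajc3 (chr14:118937819-118937853, plus strand), and in Calr and Creld2 the element runs against the gene. A match is a run of letters, not a measured binding site.
Pdia6: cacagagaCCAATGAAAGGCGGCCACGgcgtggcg
Calr: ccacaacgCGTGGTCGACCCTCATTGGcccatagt
Canx: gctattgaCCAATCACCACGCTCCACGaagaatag
Creld2: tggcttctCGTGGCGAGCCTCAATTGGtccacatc
Dnajc3: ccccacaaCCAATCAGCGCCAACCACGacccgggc

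Hspa5 had 621, 699.8 and 566 CPM in the ob/ob libraries, against 1251, 1177 and 852 CPM in the WT libraries. All ob/ob values were below all WT values, and WT library 3 was the lowest of the WT libraries (log2 fold change -0.80 ± 0.15, adjusted p = 0.00938). Hsp90b1 had 418, 474 and 381 CPM in the ob/ob libraries, against 748, 817 and 541 CPM in the WT libraries (log2 fold change -0.73 ± 0.16, adjusted p = 0.0146). Pdia4 (ENSMUSG00000025823, chromosome 6, 47796141 to 47813430, minus strand), a disulfide isomerase of the ER, had 64.3, 67.8 and 58.1 CPM in the ob/ob libraries, against 133, 134 and 102 CPM in the WT libraries (log2 fold change -0.96 ± 0.12, adjusted p = 0.00282). Creld2, another isomerase, had 18.1, 22.4 and 19.8 CPM in ob/ob fat, against 50.1, 43.03 and 31.8 CPM in WT fat (log2 fold change -1.05 ± 0.16, adjusted p = 0.00552). Pdia6, an isomerase as well, and the calcium-binding lectin chaperones Calr and Canx had log2 fold changes of -0.69 ± 0.13, -0.67 ± 0.13 and -0.47 ± 0.11. Manf, a secreted ER stress protein, had -1.01 ± 0.16, Hyou1, the large ER Hsp70, -1.04 ± 0.18, and Sdf2l1, a cofactor of BiP, -1.11 ± 0.20. Dnajc3, a BiP co-chaperone that carries the element, was just outside the threshold (log2 fold change -0.38 ± 0.12, adjusted p = 0.0502). Among the genes of the list that did not pass were Ddit3, the death-linked factor CHOP, at -0.20 ± 0.15, and Atf4, its activator, at 0.05 ± 0.12. Xbp1, the target of IRE1, did not pass either, at -0.18 ± 0.11. The activity of the sensors was not tested. The count of genes of this response that fell was 6, 11 or 8 without ob/ob library 1, 2 or 3, and 9, 8 or 15 without WT library 1, 2 or 3.

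Heat shock genes of the cytosol fell too, with exceptions. Of 21 tested, 11 fell and 2 rose (median -0.36). Hsph1, a large chaperone that recharges Hsp70, had 40.01, 46.8 and 42.7 CPM in the ob/ob libraries, against 105, 102 and 81.3 CPM in the WT libraries. Every ob/ob library was well below every WT library (log2 fold change -1.16 ± 0.14, adjusted p = 0.0026). Hspa1b, an inducible Hsp70, had 3.13, 4.27 and 3.48 CPM in ob/ob fat, against 12.7, 10.3 and 8.49 CPM in WT fat (log2 fold change -1.53 ± 0.24, adjusted p = 0.00542), and its near-identical copy Hspa1a -1.52 ± 0.28, so reads that match both were not counted and each value is uncertain. Chordc1, a partner of Hsp90, had -0.75 ± 0.14. The genes that rose were the small heat shock proteins Cryab (log2 fold change 1.44 ± 0.29, adjusted p = 0.0112) and Hspb1 (log2 fold change 0.93 ± 0.19, adjusted p = 0.0128). Of 16 genes of the list with a RefSeq promoter, the heat shock element TTCNNGAANNTTC or its reverse complement was present in 2 of 8 that fell and in 2 of 7 that did not pass, against 0.603% of all promoters. The summed heat shock genes had 3165.6, 3304.7 and 3218.1 CPM in the ob/ob libraries, against 4467, 4286.8 and 3651.9 CPM in the WT libraries, and the summed ER genes 3782.7, 4222 and 3658 CPM in the ob/ob libraries, against 6649.4, 6353.5 and 4756.7 CPM in the WT libraries. In both sums WT library 3 was the lowest of the WT libraries, as it was for the macrophage sum, and the part of cell makeup in these results was not tested. The count of heat shock genes that fell was 4, 10 or 8 without ob/ob library 1, 2 or 3, and 9, 6 or 14 without WT library 1, 2 or 3. Of the 16 protein folding genes named as changed, Hsph1, Hspa1b, Chordc1, Pdia4, Creld2, Manf, Hyou1, Sdf2l1 and Pdia6 passed in all 17 alternatives, and the other 7 missed the threshold without ob/ob library 1, passing in 12 to 16.

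The genotype difference on HFD was then set against that on ND, measured in the other 6 epididymal fat libraries, with 3 ob/ob ND and 3 WT ND mice. On ND, 7558 genes (48.2%) differed between ob/ob and WT, 3951 (25.2%) of them higher and 3607 (23%) lower in ob/ob fat. The difference of the genotype effects, HFD minus ND, passed in 6285 genes (40.1%), positive in 3045 (19.4%) and negative in 3240 (20.7%). In the same fit, HFD against ND passed in 9227 genes (58.9%) within WT fat. Within ob/ob fat it passed in 0 genes, with 848 at an unadjusted p under 0.05. Of the genes that rose on HFD, 360 also rose on ND and 417 fell on ND. Among those that fell on HFD, 395 also fell on ND and 342 rose on ND. All 417 and all 342 passed the test of the difference. This was close to assured by their choice, since they had passed in opposite directions in the same fit. Another 799 genes rose on HFD without passing on ND, of which 510 passed the test of the difference, and 439 fell on HFD in this way, of which 240 did.

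Adipocyte genes pointed in opposite directions on the diets. Of the 22, 11 rose on HFD and 17 fell on ND, where the median was -1.23, and 19 had a positive difference. Adipoq had 889.99, 1434 and 1082 CPM in the ob/ob ND libraries, against 5951, 7192 and 5848 CPM in the WT ND libraries. These ob/ob ND levels are near those of ob/ob HFD fat, while WT fat was far lower on HFD than on ND. The difference for Adipoq was 3.32 ± 0.56 on the log2 scale (adjusted p = 0.00104). Branched-chain amino acid genes went the same way, with 17 of 24 higher on HFD, 23 lower on ND and 23 positive differences. Of 74 respiratory chain genes, 55 fell on ND and 64 had a positive difference. Adrb3 had 3.77, 6.28 and 2.85 CPM in the ob/ob ND libraries, against 696, 502 and 554 CPM in the WT ND libraries. It fell on both diets, and the difference was 5.28 ± 0.60 (adjusted p = 0.000105).

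Macrophage markers and lipid-associated macrophage genes had medians below 0 on HFD and above 0 on ND, though few of them passed on HFD. Resident and alternatively activated macrophage genes had medians below 0 on both diets. Of 22 markers, 4 fell on HFD, 20 rose on ND (median 1.73), and 20 had a negative difference. Adgre1 had 629, 491 and 510.4 CPM in the ob/ob ND libraries, against 68.7, 64.7 and 62.6 CPM in the WT ND libraries, with a difference of -3.71 ± 0.17 (adjusted p = 6.87e-07). Of 25 lipid-associated macrophage genes, 2 fell and 1 rose on HFD, 21 rose on ND and 21 had a negative difference. Of 25 resident and alternatively activated macrophage genes, 8 fell on HFD, and 13 fell and 5 rose on ND (median -1.79). The 5 lie below the 25.2% of all genes. This list had 10 positive and 4 negative differences, the 4 being below the 20.7% of all genes. Of the 25 ER stress genes 9 rose and 6 fell on ND, the 6 being near the 23% of all genes, and 17 had a negative difference. Cell division genes had 2 of 26 lower on HFD, near the 7.5% of all genes, 26 higher on ND and 26 negative differences.

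Some other lists and genes moved the same way on both diets or had mixed differences. Of 16 mesothelial genes, 15 fell on HFD and 8 on ND (median -1.47), and 0 passed the edgeR test of the difference (4 at an unadjusted p under 0.05 and 2 by DESeq2). Lrrn4 had 17.7, 56.004 and 12.7 CPM in the ob/ob ND libraries, against 41.6, 48.7 and 116 CPM in the WT ND libraries, and its difference was -2.13 ± 0.80 (adjusted p = 0.0536). Of 30 interferon genes, 8 fell on HFD and 15 on ND, with 1 positive and 2 negative differences, below the 19.4% and 20.7% of all genes. Cholesterol synthesis genes had 10 of 23 higher on HFD and 16 higher on ND, with 4 positive and 7 negative differences. The 4 lie below the 19.4% of all genes with a positive difference, and 20.7% of all genes had a negative one. Clock genes had 11 of 19 higher on HFD, 4 higher and 4 lower on ND, and 6 positive differences against 1 negative. Their ND counts lie below the 25.2% of all genes higher and 23% lower on ND. Ppp1r3a rose on both, with 16.5, 31.2 and 57.5 CPM in the ob/ob ND libraries, against 0, 0 and 0.146 CPM in the WT ND libraries. Its WT ND libraries held almost no counts of it, so the size of that difference depends on the fit and is not given.

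**Figure D5:**
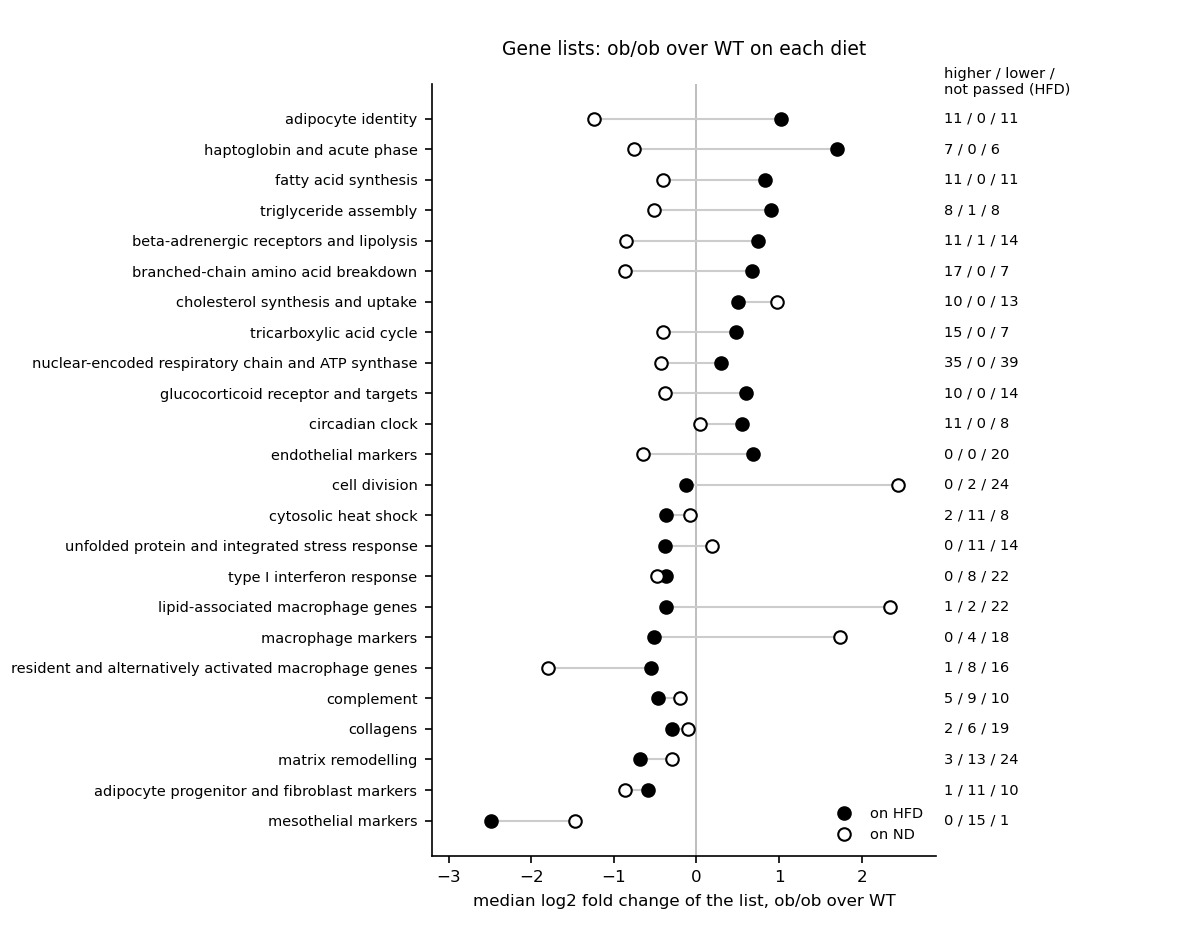
Median log2 fold change of ob/ob over WT for 24 gene lists, with filled circles for HFD and open circles for ND, and the HFD counts of genes higher, lower and not passed at the right. Adipocyte, branched-chain and respiratory chain lists lie above 0 on HFD and below 0 on ND, both the macrophage marker and the lipid-associated lists lie the other way, and the mesothelial list is below 0 on both diets.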

How the data were processed

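RNA of 12 epididymal fat samples and phenotype tables of the same mice were used, with groups taken from the sample titles. Per the file headers, the authors made the counts with featureCounts 1.5.1: whole fragments per Ensembl gene, paired reads, exons, no strand option, and reads that match several places left out. The submitters' processing notes list Trimmomatic 0.36, HISAT2 2.0.5, GRCm38 and featureCounts 1.5.0-p2, another version than the header. Reads of overlapping genes on opposite strands were thus not separated, and near-identical copies are undercounted. Of 274 genes that the naming rule takes, 68 share exon bases with another gene, and 3 share most of theirs. The phenotype tables were deposited with other values, a single one per mouse, and name units only for blood work. Of 49671 gene IDs, the GENCODE gene name table named 49326.

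Counts were fitted with edgeR 4.0.16 in R 4.3.3, with filterByExpr (smallest count 10, smallest total 15), TMM and 4 group means over 12 libraries. Quasi-likelihood tests were run for genotype on each diet, for the difference of these effects and for diet within each genotype. Benjamini-Hochberg adjustment and a threshold of 0.05 were used. The standard error is the log2 fold change divided by the square root of F. P values measure the spread between single mice. Replicates differed from each other by more than counting noise (chi-square per degree of freedom 9.68 to 108). On simulated counts of 15408 genes for this comparison, 65% of genes changed by 2-fold and 97% of those changed by 4-fold were recovered, with 7 false calls among 169. The changed genes, 100 of each size, were drawn only from genes with ample counts, and each gene was simulated on its own. Shifts of a mouse shared by many genes were thus absent, so these rates may not hold for the real comparison. The exact two-sided permutation test was used for phenotypes. Genes with few counts carry large standard errors.

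Members, gene lists and tests were chosen with earlier results of these data known. The naming rule takes up to 5 genes of smallest p per list, the 6 highest and 6 lowest differences between diets, Lep and Lepr, and the 12 highest and 12 lowest HFD fold changes. The last group had to pass the threshold, have a regular symbol and a mean logCPM of 1 or more, and show no overlap of the genotypes. Others, such as Adipoq, Plin1, Cd36, Fasn, Acaca, Mlxipl, Dgat2, Adrb3, Irs1, Akt2, Nr3c1, Tsc22d3, Hsd11b1, Arntl, Saa3, Msln, Wt1, Bnc1, Pdgfra, Zfp423, Lox, Mmp3, Col1a1, Trem2, Tnf, Cryab, Hspb1, Atf4, Ddit3 and the chaperones with a printed promoter, were chosen after their values were seen. A few genes picked this way were left unreported. The fit was repeated with DESeq2 1.42.0, with DESeq2 size factors inside edgeR, without the filter, with the 6 HFD libraries alone, with mouse number as a block, and without each library. RefSeq promoter sequences (GRCm38.p6) were searched for given motif letters in Python 3.11.15.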

Additional observations from a re-analysis of the deposited data

Results flagged for a closer look

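The difference between the genotype effect on HFD and that on ND was tested for every gene, and 6285 of 15676 passed an adjusted p of 0.05 in edgeR's quasi-likelihood test. In 417 genes ob/ob fat was higher on HFD and lower on ND, and in 342 it was lower on HFD and higher on ND. Lists in which at least 60% of 10 or more tested members passed with a positive difference were adipocyte identity (19 genes), triglyceride assembly (12), beta-adrenergic signalling and lipolysis (18), the nuclear-encoded respiratory chain (64), the tricarboxylic acid cycle (19), branched-chain amino acid breakdown (23), liver secretory markers (11) and acute phase genes (9). With a negative difference these were lipid-associated macrophage genes (21), macrophage markers (20), cell division (26) and the unfolded protein response (17).

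The 6 highest and 6 lowest differences among genes with enough counts were also picked out. Cfd had 189, 131 and 137 CPM in the ob/ob libraries, against 13.2, 37.01 and 89.3 CPM in the WT libraries, and 136, 249 and 118 CPM in the ob/ob ND libraries, against 6265, 6796 and 4732 CPM in the WT ND libraries. It was higher in ob/ob fat on HFD and far lower on ND (adjusted p of the difference 0.000124). Spp1 had 299.99, 125 and 137 CPM in the ob/ob ND libraries, against 0.559, 2.12 and 0.513 CPM in the WT ND libraries, and its adjusted p of the difference was 0.00138. St18 had 5.52, 7.51 and 7.10 CPM in the ob/ob libraries, against 7.43, 8.30 and 8.92 CPM in the WT libraries, and 0 counts in the 3 WT ND libraries (adjusted p of the difference 9.51e-06). Hmga2 (0.00106), Serpinb1c (0.000109) and Prss46 (0.00021), given with the same p, likewise had 0 counts in all WT ND libraries, so no fold is given. Rgn (0.0384), Ambp (0.0339), Mup20 (0.0436) and Fga (0.0443) are known as liver genes, and Fga had 3.54, 1.66 and 0 CPM in the ob/ob ND libraries, against 7.98, 61.4 and 0.293 CPM in the WT ND libraries, with 1 WT ND library far above the rest. The immunoglobulin segments Igkv14-126 (0.0276) and Ighv1-4 (0.0245) varied between mice of 1 group, Ighv1-4 with 0.0823, 0 and 0.213 CPM in the ob/ob libraries, against 0.230, 18.9 and 0.0719 CPM in the WT libraries.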

How the results depend on the processing

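Among 17 alternatives, which reuse the same libraries, none of the 2752 HFD calls changed sign. Of 193 named genes past the threshold, 65 passed in every alternative, and of 3279 gene values 2772 stayed on their side and 507 missed the threshold. Calls on HFD were 3367 with DESeq2 (1770 higher, 1597 lower), 2684 with its size factors, 2266 with no filter and 1566 with the 6 HFD libraries alone (719 higher, 847 lower, thus 45.9% higher against 57.3% in the main result). Leaving out 1 library gave 376 to 4420. Gene list calls were 340 of 1042, 210 with the 6 HFD libraries and 58 to 492 with 1 library out. Named gene calls were 66 to 189 and cell type marker calls 4 to 102 (54 in the main result) with 1 library out. Fewer libraries were fitted in each of these, and the cause of the changes in these counts was not tested. The test of the difference between diets gave 5053 to 7487 genes. Mice with the same number did not deviate together (correlations of -0.341, 0.083 and 0.138, with 1 of 3 best matched by its own number), so the numbers do not pair the samples, and the replicate block gave 2212 HFD calls, 2137 of them among the 2752. Phenotype differences that turned sign with 1 mouse out ranged as follows: glucose -35.7 to 41.7, triglyceride -6.50 to 17, free water -0.0733 to 0.362 and total water -1.54 to 0.19. Depth limits genes under about 10 counts, which were not tested.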

Other observations

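No endothelial marker and 4 mural cell markers passed in ob/ob fat on HFD. Of 20 endothelial markers 0 passed in edgeR, 12 had an unadjusted p under 0.05 and 3 were called by DESeq2, with a median log2 fold change of 0.69, and 9 of them had a positive difference between diets. Flt1, a receptor for vascular growth factor, had 54.1, 47.03 and 47.6 CPM in the ob/ob libraries, against 22.2, 20.7 and 42.3 CPM in the WT libraries (log2 fold change 0.80 ± 0.30, adjusted p = 0.0862). WT library 3 lay close to the ob/ob range, as it did for the adipocyte sum. Of 15 smooth muscle and pericyte markers, 4 rose and 0 fell, where 10.1% of all genes rose. Those that rose numbered 1, 2 or 2 without ob/ob library 1, 2 or 3. Without WT library 1, 2 or 3 they numbered 2, 1 or 8. Cspg4, the pericyte proteoglycan NG2, had 80.02, 73.6 and 71.6 CPM in the ob/ob libraries, against 29.4, 23.6 and 42.4 CPM in the WT libraries (log2 fold change 1.24 ± 0.19, adjusted p = 0.00534), and Mcam, the adhesion molecule CD146, rose by 1.55 ± 0.33. T and NK cell markers had 2 of 29 higher and 0 lower, B and plasma cell markers 0 of 18 in edgeR (2 at an unadjusted p under 0.05 and 1 by DESeq2), and dendritic cell and MHC class II genes 1 higher and 3 lower of 24. Of 16 granulocyte and mast cell markers 1 rose, S100a8, a calcium-binding protein of neutrophils, with 27.7, 19.8 and 25.8 CPM in the ob/ob libraries, against 7.82, 8.09 and 7.91 CPM in the WT libraries (log2 fold change 1.62 ± 0.28, adjusted p = 0.00776). Called were 6.9% of the T and NK cell markers and 16.7% of the dendritic cell and MHC class II genes. For granulocyte and mast cell markers the share was 6.25%, and these shares lie below the 17.6% of all genes.

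Genes of vitamin A and steroid handling were divided, with 4 of 20 higher and 4 lower, where 10.1% of all genes rose and 7.5% fell. Without ob/ob library 1, 2 or 3 those that rose numbered 1, 1 or 1 and those that fell 1, 3 or 1. Without WT library 1, 2 or 3 they numbered 2, 1 or 4 and 3, 1 or 6. Rarb, a retinoic acid receptor induced by its own ligand, had 7.66, 6.01 and 6.25 CPM in the ob/ob libraries, against 1.07, 1.36 and 2.52 CPM in the WT libraries (log2 fold change 1.997 ± 0.34, adjusted p = 0.00741). Dhrs3, which turns retinaldehyde back into retinol, had 191, 211 and 197 CPM in the ob/ob libraries, against 279.6, 323 and 335 CPM in the WT libraries (log2 fold change -0.65 ± 0.11, adjusted p = 0.00651). Aldh1a2, which makes retinoic acid and is also abundant in mesothelium, fell by a log2 fold change of -1.77 ± 0.44, and Sult1e1, the estrogen sulfotransferase, by -2.69 ± 0.60. Of 21 hypoxia response genes 5 rose and 1 fell, where 10.1% of all genes rose and 7.5% fell. The hypoxia genes that rose numbered 0, 3 or 0 without ob/ob library 1, 2 or 3. Without WT library 1, 2 or 3 they numbered 1, 0 or 6. Hif1a, the oxygen-regulated transcription factor, rose by 0.53 ± 0.13, and the glycolytic genes Pfkl, Ldha and Aldoa by 0.99 ± 0.22, 0.54 ± 0.13 and 0.56 ± 0.15. The one that fell was P4ha1, the collagen hydroxylase. Of 19 brown and beige fat genes 2 rose and 1 fell, and the 15.8% called lie below the 17.6% of all genes. Ucp1, the uncoupling protein of brown fat, had counts too low to test. Otop1, a proton channel, had 27.2, 19.2 and 24.99 CPM in the ob/ob libraries, against 7.36, 7.87 and 9.42 CPM in the WT libraries (log2 fold change 1.53 ± 0.23, adjusted p = 0.00475). Of 16 polyamine and creatine genes 3 rose and 3 fell, with Azin2, an activator of ornithine decarboxylase, higher by 1.03 ± 0.17 and Nnmt, which methylates nicotinamide, by 1.08 ± 0.23. Without ob/ob library 1, 2 or 3 those that rose numbered 1, 3 or 2 and those that fell 0, 2 or 0. Without WT library 1, 2 or 3 they numbered 2, 1 or 3 and 0, 0 or 7.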
